A study of Mus musculus with 9 samples.

Results

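The receptors that bind the Fc end of IgG and the signal-regulatory (SIRP) receptors of myeloid cells were followed in epididymal adipose tissue of mice before and during weight loss. The set holds 9 of the 56748 genes of the deposited count table, and all 9 passed the filter on low counts that left 18510 genes. They are the activating IgG receptors *Fcgr1*, *Fcgr3* and *Fcgr4*, the inhibitory IgG receptor *Fcgr2b*, the signalling chain *Fcer1g*, the kinase *Syk*, the inhibitory receptor *Sirpa* and the activating receptors *Sirpb1b* and *Sirpb1c*. Members were chosen by name with their values in these libraries already known. The study prints 6 of them beside a gene cluster made from the same libraries (*Fcgr1*, *Fcgr4*, *Syk*, *Sirpa*, *Sirpb1b* and *Sirpb1c*), and the other 3 complete the family. Their levels and differences are therefore given as a description, without p-values.

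Wild-type male C57BL/6J mice were fed HFD from 8 weeks of age. The Pre group was sampled after 8 weeks of HFD, and the WL1 and WL2 groups after a further 1 and 2 weeks of SD. Each group has 3 libraries of total RNA from whole epididymal adipose tissue. No group stayed on HFD for the added weeks, so age and diet cannot be told apart between the phases. The sources used here do not say whether a library is 1 mouse, and the p-values below measure only the spread between these libraries.

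Fcγ receptors bind antibody that coats a particle or forms a complex. The activating receptors signal through the γ chain encoded by *Fcer1g*, whose cytoplasmic ITAM (immunoreceptor tyrosine-based activation motif) is phosphorylated by Src family kinases and then docks SYK. Fcgr2b and SIRPα carry ITIMs (immunoreceptor tyrosine-based inhibitory motifs) that recruit phosphatases instead, and SIRPα binds CD47, a signal against engulfment displayed by most cells. SIRPβ receptors have a short tail and signal through the ITAM adapter encoded by *Tyrobp* (DAP12). In adipose tissue these genes are read mainly as genes of macrophages, which gather around dying adipocytes in obesity.

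The tails are shown as coding DNA of the mouse transcripts (GENCODE M21, GRCm38), to show which members carry an activating and which an inhibitory motif. Capitals mark the codons of the tyrosines that are phosphorylated. The *Fcer1g* stretch encodes residues 65 to 79, the *Fcgr2b* stretch residues 317 to 322, and the *Sirpa* stretches residues 438 to 443, 462 to 467, 479 to 484 and 503 to 508.
Fcer1g ITAM: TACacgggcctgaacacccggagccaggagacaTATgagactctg
Fcgr2b ITIM: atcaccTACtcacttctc
Sirpa ITIM, residue 438: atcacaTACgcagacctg
Sirpa ITIM, residue 462: acagaaTATgcaagcatt
Sirpa ITIM, residue 479: ctcaccTATgctgacctg
Sirpa ITIM, residue 503: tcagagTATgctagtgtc

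Near-identical sequence bears on which member a read counts for. Of the 100-base windows of the *Sirpb1b* transcript, 50.21% also occur in a transcript of another gene, and of the *Sirpb1c* transcript 55.57%. The partners include each other (43.79% of the windows of *Sirpb1b* occur in *Sirpb1c*) and *Sirpb1a*. Values of *Sirpb1b* and *Sirpb1c* are therefore uncertain as single genes. *Fcgr3* shares 3.53% of its windows with *Fcgr2b*, and *Fcgr2b* shares 3.54% with any other gene. No window of *Fcgr1*, *Fcgr4*, *Fcer1g*, *Syk* or *Sirpa* was shared. The authors' table places *Fcgr2b* (chr1:170786186-170804116, minus strand), *Fcgr4* (chr1:170846489-170857330, plus strand), *Fcgr3* (chr1:170878743-170892504, minus strand) and *Fcer1g* (chr1:171057141-171061934, minus strand) as neighbours on chromosome 1. These positions differ from GRCm38 and are given without a build.

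The bases just before the start site of the 4 IgG receptors are shown, and their part in the levels of these genes was not tested. They are from RefSeq (GRCm38.p6), which matched 8 of the 9 members, and capitals mark the motif matches. GAGGAA is a core of sites of PU.1, the myeloid lineage factor, TTCNNNGAA of STAT factors, a pair of GAAA 2 bases apart of interferon regulatory factors, and CATGTG of MITF and TFE factors. Both strands were searched from 250 bases before to 50 bases after each start, where 28.276%, 8.298%, 3.443% and 14.155% of 32851 mouse promoters held these motifs. GAGGAA was found for *Fcgr1*, *Fcgr3*, *Fcgr4* and *Syk*, TTCNNNGAA for *Fcgr1*, *Sirpb1b* and *Sirpb1c*, the GAAA pair for *Fcgr4* and *Sirpb1b*, and CATGTG for *Fcgr1*. None was found for *Fcgr2b* or *Fcer1g* in this window. The stretches lie at chr3:96293970-96294089 (*Fcgr1*, minus strand), chr1:171059404-171059523 (*Fcgr3*, minus strand), chr1:171018806-171018925 (*Fcgr4*, plus strand) and chr1:170976128-170976191 (*Fcgr2b*, minus strand), and the last ends 57 bases before the start.
Fcgr1: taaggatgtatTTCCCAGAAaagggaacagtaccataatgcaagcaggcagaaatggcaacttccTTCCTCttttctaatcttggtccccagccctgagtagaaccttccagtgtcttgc
Fcgr3: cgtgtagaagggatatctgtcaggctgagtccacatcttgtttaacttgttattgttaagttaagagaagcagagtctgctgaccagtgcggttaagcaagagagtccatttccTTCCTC
Fcgr4: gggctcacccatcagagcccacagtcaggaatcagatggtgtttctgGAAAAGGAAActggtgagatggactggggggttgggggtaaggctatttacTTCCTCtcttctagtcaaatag
Fcgr2b: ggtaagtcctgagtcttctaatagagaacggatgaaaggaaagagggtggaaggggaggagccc

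The libraries held 16434450 to 22729072 counted reads. Adipocyte markers summed to 18620 to 32354 CPM (counts scaled to library size with TMM factors) and all 6 passed the filter, as the tissue label says. A pair of libraries stood apart in ways that touch the members. Pre replicate 2 had a summed level of 6 B-cell markers of 215 CPM, against 4.13 and 6.09 CPM in the other Pre libraries and 6.02 to 21.0 CPM in WL1 and WL2. WL2 replicate 1 had the highest level of its group for 8 of the 9 members, above most or all Pre libraries. The members' differences are given with and without it below. It was picked by the members' own levels, and leaving it out deepens the fall of those 8 in WL2 against WL1.

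Per length, *Fcer1g* was the most abundant member and the SIRPβ genes the least. In the deposited FPKM (read counts scaled to transcript length and library size), the median over the 9 libraries was 97.7 for *Fcer1g*, 46.7 for *Fcgr3*, 43.7 for *Sirpa* and 15.2 for *Syk*. It was 8.61 for *Fcgr2b*, 4.28 for *Fcgr4*, 3.70 for *Fcgr1*, 0.424 for *Sirpb1c* and 0.402 for *Sirpb1b*. The order of neighbours held in all 9 libraries between *Fcer1g* and *Fcgr3*, *Sirpa* and *Syk*, and *Fcgr1* and *Sirpb1c*. It was exchanged in 1 to 3 libraries for the other neighbours, with the most exchanges between *Syk* and *Fcgr2b*. Reads per library ran from 8 to 66 for *Sirpb1b*, 12 to 115 for *Sirpb1c*, 50 to 337 for *Fcgr4* and 84 to 458 for *Fcgr1*, and from 790 upward for the other members, so the SIRPβ genes have the least precise values.

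The 3 activating IgG receptors were each higher in every WL1 library than in any Pre library. *Fcgr3*, the low-affinity receptor of macrophages and NK cells, had 54.5, 82.6 and 86.3 CPM in Pre, 111, 147 and 250 CPM in WL1, and 138, 64.3 and 69.8 CPM in WL2. WL1 and Pre did not overlap, and WL2 held 1 library at the WL1 level and 2 at the Pre level. The fitted log2 fold change was 1.18 (SE 0.35) in WL1 against Pre and -0.90 (SE 0.35) in WL2 against WL1, or -1.33 without WL2 replicate 1. *Fcgr1*, the high-affinity receptor, had 5.96, 6.61 and 10.2 CPM in Pre, 14.5, 13.8 and 25.8 CPM in WL1, and 12, 7.02 and 4.86 CPM in WL2. Every WL1 library was above every library of the other phases. The log2 fold change was 1.24 (SE 0.36) in WL1 against Pre and -1.17 (SE 0.36) in WL2 against WL1, or -1.60 without WL2 replicate 1. *Fcgr4*, a receptor for IgG2 subclasses of monocytes, macrophages and neutrophils, had 4.01, 5.29 and 5.72 CPM in Pre, 8.79, 14.4 and 18.9 CPM in WL1, and 9.47, 3.17 and 2.90 CPM in WL2. The lowest WL1 library lay below WL2 replicate 1 and above the rest. Its log2 fold change was 1.48 (SE 0.43) in WL1 against Pre and -1.43 (SE 0.43) in WL2 against WL1, or -2.21 without WL2 replicate 1.

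*Fcgr2b*, the inhibitory receptor that shares the IgG ligand, was the exception among the members. It had 46.6, 80.6 and 80.2 CPM in Pre, 53.7, 46.0 and 61.7 CPM in WL1, and 49.2, 45.9 and 65.7 CPM in WL2. The 3 phases overlapped, and WL1 replicate 3, the library with the highest level of every member within WL1, was below 2 of the Pre libraries for this gene. The log2 fold change was -0.36 (SE 0.22) in WL1 against Pre, -0.37 (SE 0.22) in WL2 against Pre and -0.00 (SE 0.22) in WL2 against WL1, or 0.05 without WL2 replicate 1. Under the 19 alternative settings it ran from -0.58 to -0.24 in WL1 against Pre. Across the 9 libraries each of the other 8 members correlated with the mean of the remaining members with r of 0.90 to 0.99, and *Fcgr2b* with r of 0.01. These points share library and phase. With the phase means removed, r was 0.81 to 0.98 for the 8 members and 0.40 for *Fcgr2b*.

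**Figure D1:**
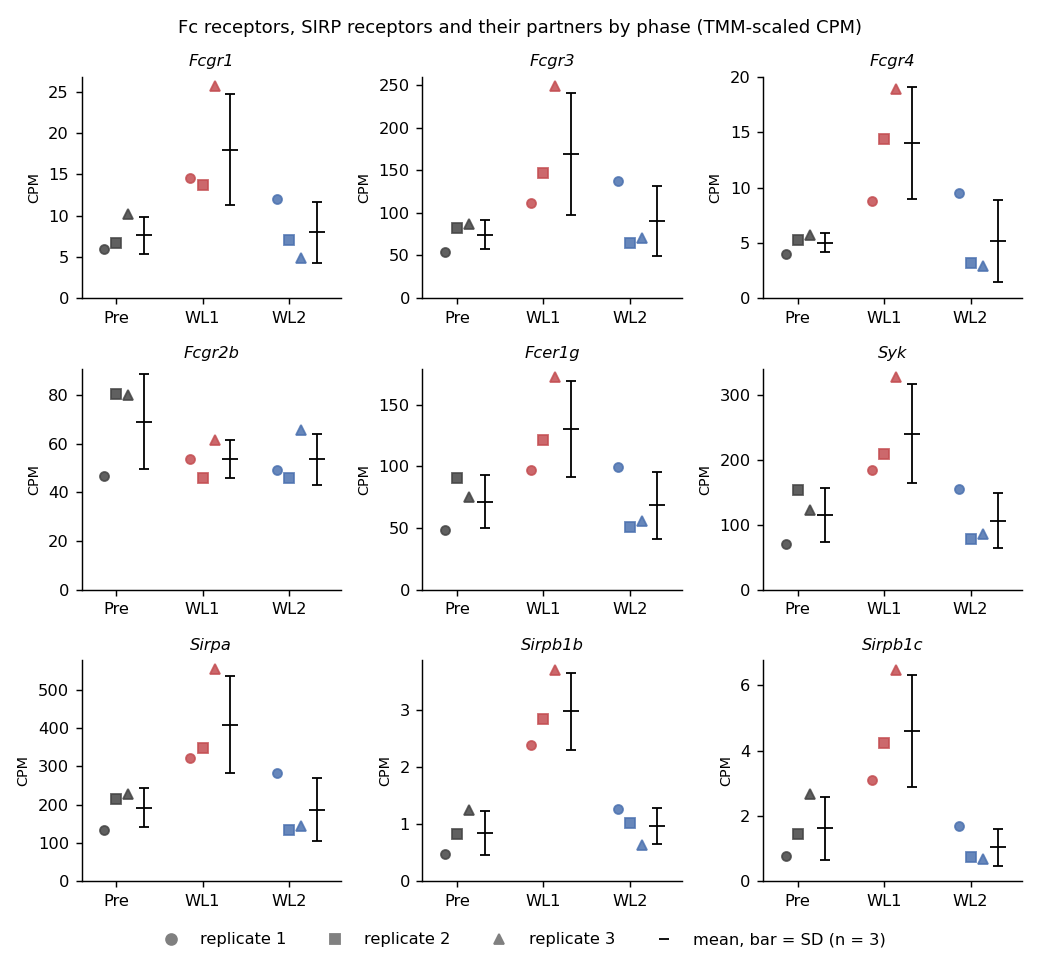
TMM-scaled CPM of each member (vertical axes from 0) in the 3 libraries of Pre, WL1 and WL2, with the symbol giving the replicate number and the dash and bar the mean and SD (n = 3). Fcgr2b overlaps between all phases, and the other 8 members are higher in each WL1 library than in any Pre library, with WL2 replicate 1 the highest WL2 library.

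Within a library, the balance of activating over inhibitory IgG receptors was shifted at WL1. The summed FPKM of *Fcgr1*, *Fcgr3* and *Fcgr4* was 4.58, 3.91 and 4.21 times that of *Fcgr2b* in Pre, 8.26, 12.8 and 15.8 times in WL1, and 10.8, 5.34 and 3.91 times in WL2. The mean ratio was 4.23 ± 0.34 in Pre, 12.3 ± 3.81 in WL1 and 6.67 ± 3.62 in WL2 (SD, n = 3 each). WL1 and Pre did not overlap, while WL2 spanned from the Pre level into the WL1 range. *Fcgr3* made up most of the sum, and its ratio to *Fcgr2b* alone was 3.42 to 3.90 in Pre and 6.90 to 13.5 in WL1. The ratio uses members whose values were known, and no test was made of it.

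The summed level of macrophage markers was also highest at WL1, although the single markers varied. The sum of 12 markers was 1575 to 2813 CPM in Pre, 3150 to 5982 CPM in WL1 and 1789 to 3368 CPM in WL2, of which *Lyz2* was the largest term, and 12 of 12 were detected. Of the 12, *Adgre1*, *Cd68*, *Itgam* and *Ctss* were higher in every WL1 library than in any Pre library, and the other 8 overlapped. The log2 fold change was positive for 9 and negative for *Aif1* (-0.27), *Cx3cr1* (-0.64) and *Cd163* (-0.41), and 0 of 12 passed the edgeR threshold. At an unadjusted p below 0.05 were 5 of 12, beside 24.3% of all genes. In whole tissue, fewer cells of a type and less RNA per cell cannot be told apart. Per 100 CPM of these markers, *Fcgr3* had 3.46, 2.94 and 3.36 CPM in Pre, 3.52, 4.0 and 4.17 CPM in WL1, and 4.09, 3.59 and 3.50 CPM in WL2. *Fcgr2b* had 2.96, 2.86 and 3.12 CPM in Pre, 1.70, 1.25 and 1.03 CPM in WL1, and 1.46, 2.57 and 3.29 CPM in WL2. Relative to the markers, *Fcgr2b* thus lay within a narrow band in Pre and below it in every WL1 library. *Fcer1g* stayed at 2.91 to 3.23 CPM in Pre and 2.89 to 3.32 CPM in WL1 on this scale. *Fcgr1* overlapped, with 0.235 to 0.397 CPM in Pre and 0.375 to 0.462 CPM in WL1, and so did *Sirpb1c*. *Fcgr4* did not overlap, with 0.188 to 0.255 CPM in Pre and 0.279 to 0.392 CPM in WL1, and neither did *Sirpb1b*. *Syk* was 4.49 to 5.44 CPM in Pre, 5.46 to 5.85 CPM in WL1 and 4.28 to 4.60 CPM in WL2, and *Sirpa* 7.60 to 8.90, 9.26 to 10.2 and 7.19 to 8.36 CPM. The part of macrophage number in these levels was not tested.

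**Figure D2:**
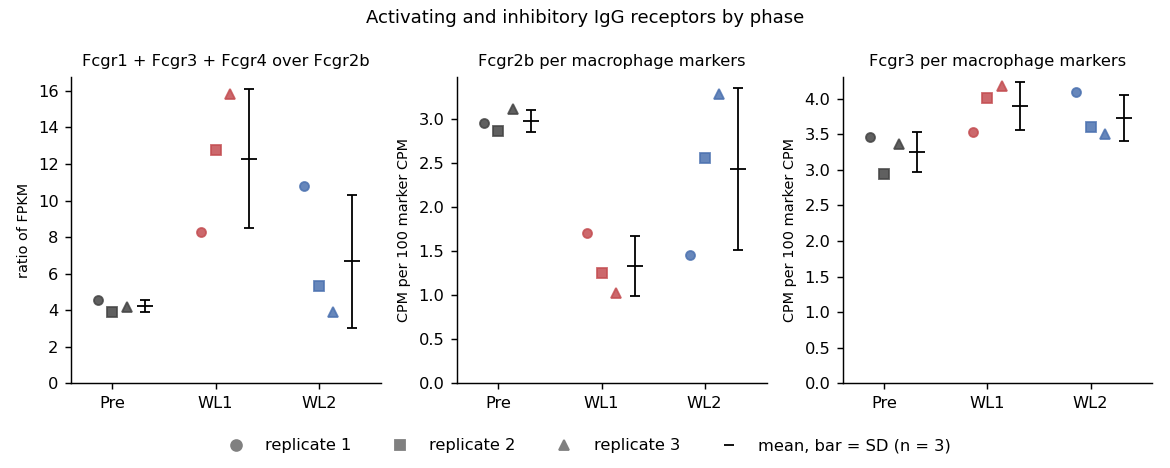
Left, ratio of the summed FPKM of Fcgr1, Fcgr3 and Fcgr4 to the FPKM of Fcgr2b; middle and right, CPM of Fcgr2b and Fcgr3 per 100 CPM of 12 macrophage markers; symbols are libraries, dashes and bars the mean and SD (n = 3 per phase). The Fcgr2b values of WL1 (1.03 to 1.70) lie below those of Pre (2.86 to 3.12), and the Fcgr3 values of WL1 (3.52 to 4.17) lie above those of Pre (2.94 to 3.46). Fcgr1 and Fcgr4 per marker CPM are not drawn, and Fcgr1 overlapped between Pre and WL1.

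Other cells that carry Fc receptors gave lower summed signals. Neutrophil markers summed to 20.4 to 24.4 CPM in Pre, 11.2 to 14.8 CPM in WL1 and 5.67 to 11.2 CPM in WL2, and *Ly6g* was at 0 in every library. NK cell markers summed to 3.72 to 8.16 CPM, mast cell markers to 42.6 to 73.5 CPM and dendritic cell markers to 49.2 to 64.4 CPM over the 9 libraries. The largest term was *Kit* (mean 26.28 CPM) for mast cells and *Zbtb46* (mean 34.25 CPM) for dendritic cells. Each other marker averaged at most 7.02 CPM (*Tpsb2*) and 8.91 CPM (*Cd209a*) in these lists. B-cell markers summed to 215 CPM in Pre replicate 2 and at most 21.0 CPM elsewhere. *Fcgr2b* had 80.6 CPM in Pre replicate 2 and 80.2 CPM in Pre replicate 3, where B-cell markers summed to 6.09 CPM. The part of B cells in the *Fcgr2b* level was not tested. The neutrophil sum was mostly *S100a8* in Pre. Single markers of these lists went both ways at WL1. *S100a8* (neutrophils), *Cd209a* and *Itgae* (both dendritic cells) were lower in every WL1 library than in any Pre library. *S100a8* (log2 fold change -2.46, adjusted p = 0.0221) and *Cd209a* (-1.03, adjusted p = 0.00834) passed the threshold in edgeR with Benjamini-Hochberg adjustment, and *Itgae* did not. *Csf3r* (neutrophils), *Clec9a* (dendritic cells) and *Ncr1* (NK cells) were higher in every WL1 library than in any Pre library. Their log2 fold changes were 0.49, 0.39 and 1.30, and none passed the threshold. *Csf3r* and *Clec9a* were also lower in every WL2 library than in any WL1 library. These markers were picked with their values in view, and their part in the members' levels was not tested.

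The signalling chain and the kinase followed the activating receptors. *Fcer1g* had 48.5, 90.8 and 74.8 CPM in Pre, 96.9, 122 and 173 CPM in WL1, and 99.8, 50.4 and 55.3 CPM in WL2. Its log2 fold change was 0.87 (SE 0.31) in WL1 against Pre, the smallest of the 8 members with a positive value, and -0.93 (SE 0.31) in WL2 against WL1, or -1.30 without WL2 replicate 1. *Syk* had 70.7, 153 and 122 CPM in Pre, 184, 209 and 326 CPM in WL1, and 155, 77.6 and 85.5 CPM in WL2. The WL1 libraries lay above all others. The log2 fold change was 1.06 (SE 0.34) in WL1 against Pre and -1.18 (SE 0.34) in WL2 against WL1, or -1.56 without WL2 replicate 1. *Tyrobp*, the other ITAM adapter of myeloid cells and no member, had 64.7 to 108 CPM in Pre, 152 to 325 CPM in WL1 and 61.8 to 183 CPM in WL2. Its log2 fold change in WL1 against Pre was 1.37 (SE 0.41) with an adjusted p of 0.0711 (edgeR quasi-likelihood, Benjamini-Hochberg), which misses the threshold of 0.05. The FPKM ratio of *Tyrobp* to *Fcer1g* was 1.55 to 1.75 in Pre and 2.05 to 2.47 in WL1.

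The SIRP receptors were also high at WL1, the inhibitory and the activating ones alike. *Sirpa* had 135, 214 and 229 CPM in Pre, 322, 349 and 554 CPM in WL1, and 281, 135 and 144 CPM in WL2. Every WL1 library was above every other library. Its log2 fold change was 1.09 (SE 0.32) in WL1 against Pre and -1.13 (SE 0.32) in WL2 against WL1, or -1.55 without WL2 replicate 1. *Sirpb1b* had 0.47, 0.83 and 1.25 CPM in Pre, 2.39, 2.85 and 3.71 CPM in WL1, and 1.26, 1.02 and 0.64 CPM in WL2. *Sirpb1c* had 0.77, 1.43 and 2.68 CPM in Pre, 3.09, 4.22 and 6.47 CPM in WL1, and 1.70, 0.74 and 0.69 CPM in WL2. For both genes the WL1 libraries lay above all others. The log2 fold change of *Sirpb1b* was 1.79 (SE 0.41) in WL1 against Pre and -1.61 (SE 0.41) in WL2 against WL1, and that of *Sirpb1c* 1.48 (SE 0.49) and -2.13 (SE 0.51). Without WL2 replicate 1, the values in WL2 against WL1 were -1.84 for *Sirpb1b* and -2.67 for *Sirpb1c*. Since reads may be split among paralogs, *Sirpb1a*, *Sirpb1b* and *Sirpb1c* were also summed, which gave 2.18, 4.46 and 5.68 CPM in Pre, 7.82, 9.37 and 14.4 CPM in WL1, and 4.49, 2.49 and 1.74 CPM in WL2.

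**Figure D3:**
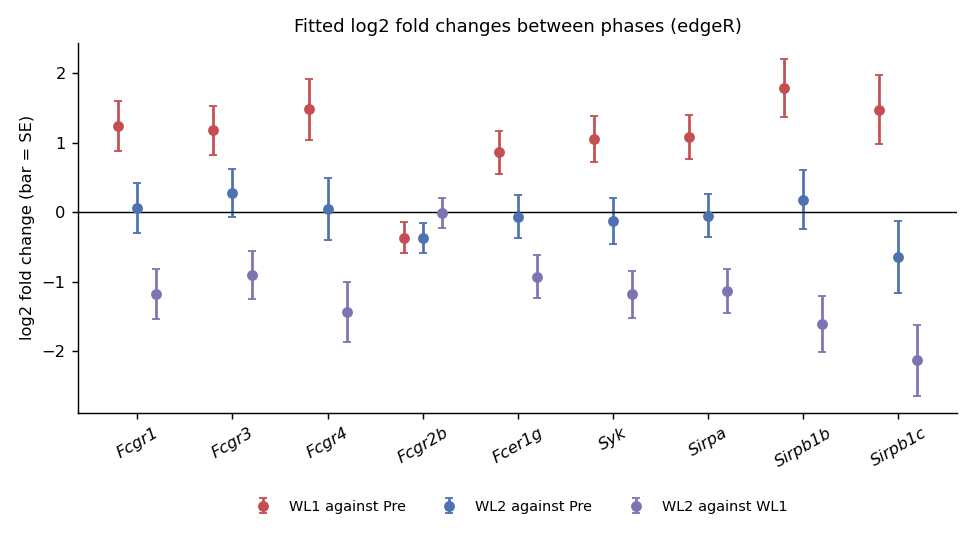
Fitted log2 fold change of each member (vertical axis) in the 3 comparisons, with bars for the SE of the edgeR fit. In WL1 against Pre 8 members lie between 0.87 and 1.79 and Fcgr2b at -0.36, and WL2 against WL1 shares the WL1 libraries and runs from -2.13 to -0.00.

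In WL1 against Pre, 8 of 9 members had higher levels in every WL1 library than in any Pre library, where 14.7% of all 18510 genes did so and 13.9% were lower without overlap. The median log2 fold change was 1.18 over the members and 0.02 over all genes. Past the edgeR threshold was 1 member, *Sirpb1b*, beside 7.29% of all genes, 2.6% higher and 4.69% lower. This count was 0 without Pre replicates 1 or 2 or without any WL1 library, 5 without WL2 replicate 1 and 8 in DESeq2. The rule that chose the members used this contrast, and nothing is read from the counts. Each member kept the sign of its log2 fold change under all 19 alternatives in this comparison, also with library totals as the only scaling, which moved the median of all genes to 0.12. Without Pre replicate 2 the values ran from -0.24 for *Fcgr2b* and 1.08 for *Fcer1g* to 1.76 for *Sirpb1b*. Over the fits that each left out 1 library, the lowest values were 0.61 for *Fcer1g*, 0.76 for *Syk* and 0.78 for *Fcgr3*. They were 0.80 for *Sirpa*, 0.89 for *Fcgr1*, 1.15 for *Sirpb1c*, 1.20 for *Fcgr4* and 1.51 for *Sirpb1b*, and *Fcgr2b* ran from -0.58 to -0.24.

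In WL2 against WL1, 5 of 9 members (*Fcgr1*, *Syk*, *Sirpa*, *Sirpb1b* and *Sirpb1c*) were lower in every WL2 library, beside 16.4% of all genes (13.9% higher). Without WL2 replicate 1 it was 8 of 9, beside 24.0%. The median log2 fold change was -1.17 over the members and -0.00 over all genes. Over the fits that each left out 1 library, the weakest falls were -0.49 for *Fcgr3*, -0.66 for *Fcer1g* and -0.81 for *Fcgr1*. They were -0.83 for *Sirpa*, -0.87 for *Syk*, -1.15 for *Fcgr4*, -1.38 for *Sirpb1b* and -1.79 for *Sirpb1c*. Past the threshold was 1 member, *Sirpb1c*, where 3.68% of all genes passed, 1.31% higher and 2.37% lower. That count was 0 without any WL1 library or without WL2 replicates 2 or 3, 2 without Pre replicates 1 or 2, 8 without WL2 replicate 1, and 7 in DESeq2.

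In WL2 against Pre, the members were near their starting level. None of the 9 was without overlap, against 15.1% of all genes higher and 15.8% lower, and the log2 fold changes ran from -0.65 (SE 0.52, *Sirpb1c*) to 0.28 (SE 0.35, *Fcgr3*) with a median of -0.04. The number past the threshold was 0 in edgeR, DESeq2 and limma, and 0 at an unadjusted p below 0.05 in edgeR, while 10% of all genes passed, 3.35% higher and 6.66% lower. The sign of these small values changed with the setting for all members except *Fcgr2b* and *Sirpb1c*. Without WL2 replicate 1 every value was negative, from -1.19 (*Sirpb1c*) to -0.05 (*Sirpb1b*), and 2 members were lower without overlap, beside 22.8% of all genes.

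A wider list of 126 genes around the members was examined by role. Its genes were chosen with earlier results of these data known. The adjusted p-values and shares of the list are therefore a description and no independent support. Of these 116 were tested, 7 fell below the filter and 3 symbols were not used by the table. In WL1 against Pre 16 rose and 2 fell, which is 13.8% and 1.72% of those tested beside 2.6% and 4.69% of all genes, and the median log2 fold change was 0.43 against 0.02 for all genes. Leaving out single libraries gave 5, 7 and 10 genes for Pre replicates 1, 2 and 3, 5, 5 and 4 genes for WL1 replicates 1, 2 and 3, and 32 genes for WL2 replicate 1. In WL2 against WL1 0 rose and 13 fell (11.2%, beside 2.37% of all genes), with a median of -0.83 against -0.00. Leaving out Pre replicate 2 gave 22 genes and WL2 replicate 1 gave 49. The number was 4 with WL1 replicate 1 removed and 1 with any of WL1 replicates 2 and 3 or WL2 replicates 2 and 3 removed. In WL2 against Pre 1 rose and 9 fell (0.862% and 7.76%), shares below and near the 3.35% and 6.66% of all genes, with a median of -0.25 against 0.01, and removing Pre replicates 2 or 3, WL1 replicate 2, or WL2 replicates 2 or 3 left 6, 5, 6, 3 and 5 genes.

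**Figure D4:**
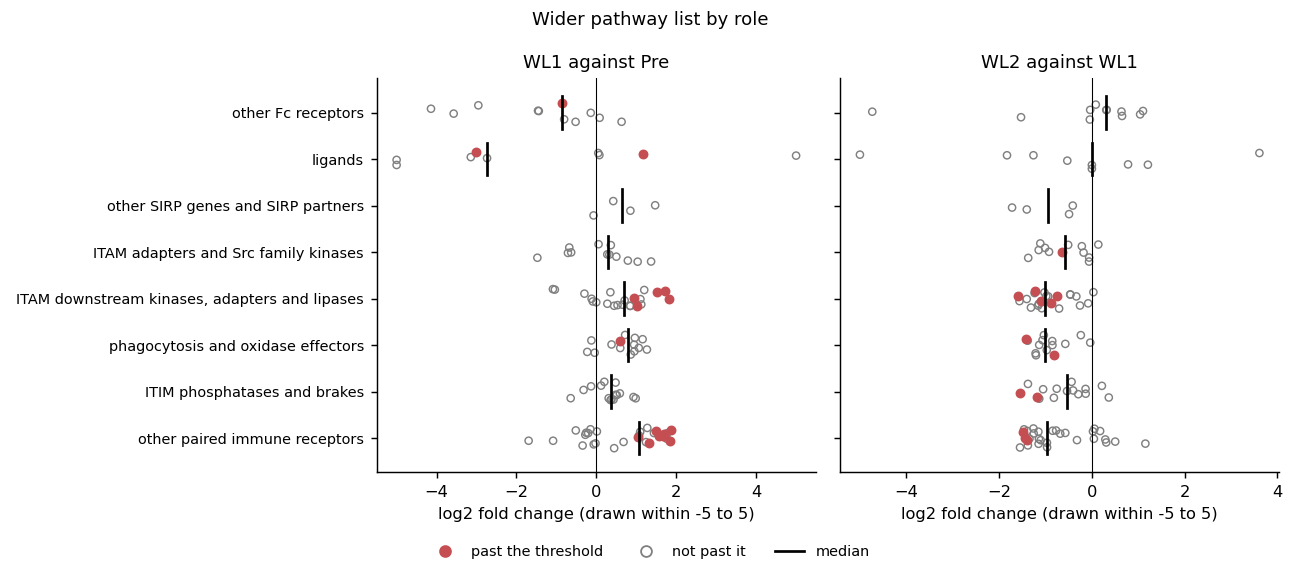
Log2 fold changes of the 116 tested genes of the wider list by role, in WL1 against Pre (left) and WL2 against WL1 (right). Filled red points passed the edgeR threshold, open points did not, vertical lines are medians, and values are drawn within -5 to 5. The filled points on the right are all below 0, and those on the left are above 0 except for Fcrls and Ighm.

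Downstream of the ITAM, 5 of 22 kinases, adapters and lipases rose in WL1 against Pre and none fell (median 0.68), where 2.6% of all genes rose and 4.69% fell. *Lat2*, an adapter phosphorylated after SYK activation, had 11.5, 23.0 and 17.5 CPM in Pre and 44.1, 52.4 and 88.6 CPM in WL1 (log2 fold change 1.83, SE 0.47, adjusted p = 0.0439, edgeR with Benjamini-Hochberg). *Blnk*, an adapter that SYK phosphorylates and that the study prints beside the same cluster, had 17.2, 34.9 and 30.5 CPM in Pre and 66.2, 78.1 and 129 CPM in WL1 (1.72, SE 0.43, adjusted p = 0.0391 in the same edgeR test). That cluster was made from these libraries, so the p of *Blnk*, like those of the whole list, is a description and no independent support. Both calls were lost without any Pre or WL1 library, with values of 1.47 to 2.08 for *Lat2* and 1.38 to 1.93 for *Blnk*. The other 3 that rose were *Pik3r5*, *Vav3* and *Tec*, named after their values were seen. *Btk*, a Tec family kinase, had a log2 fold change of 1.10 (SE 0.34) and an adjusted p of 0.0761 in edgeR with Benjamini-Hochberg adjustment. In WL2 against WL1 5 of the 22 fell, beside 2.37% of all genes. They were led by *Pik3ap1*, an adapter that recruits PI3 kinase (-1.58, SE 0.33, adjusted p = 0.0333, edgeR with Benjamini-Hochberg). Its call was lost without any WL1 library or without WL2 replicates 2 or 3 (-2.12 to -1.35 over the libraries left out).

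Of the Src family kinases that phosphorylate these motifs, *Lyn* and *Fgr* each fell in 1 comparison. *Lyn* had 79.2 to 94.3 CPM in Pre, 105 to 120 CPM in WL1 and 61.3 to 83.9 CPM in WL2, and it fell in WL2 against WL1 (log2 fold change -0.65, SE 0.13, adjusted p = 0.0305, edgeR with Benjamini-Hochberg). That call was lost without any WL1 library or without WL2 replicates 2 or 3, at -0.80 to -0.56. *Fgr* had 5.25, 18.0 and 10.3 CPM in Pre, 6.03, 8.50 and 7.14 CPM in WL1, and 3.56, 4.02 and 3.19 CPM in WL2. It fell in WL2 against Pre (-1.64, SE 0.37, adjusted p = 0.0210, edgeR with Benjamini-Hochberg), a call lost without any WL2 library.

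Of the 15 ITIM phosphatases and brakes 0 passed in WL1 against Pre in edgeR (7 at an unadjusted p below 0.05, beside 24.3% of all genes), and 2 fell in WL2 against WL1, where 2.37% of all genes did. *Ptpn6*, the phosphatase SHP-1 that binds the ITIMs of SIRPα, had 21.2, 60.6 and 30.7 CPM in Pre, 44.7, 46.2 and 60.7 CPM in WL1, and 32.9, 18.4 and 17.7 CPM in WL2. *Inpp5d*, the lipid phosphatase SHIP-1 through which Fcgr2b acts, had 29.2, 60.8 and 45.9 CPM in Pre, 56.6, 61.7 and 86.3 CPM in WL1, and 46.3, 29.6 and 40.1 CPM in WL2. Both overlapped between Pre and WL1. The 2 that fell were *Dok2*, an adapter that restrains signalling (log2 fold change -1.17, SE 0.20, adjusted p = 0.0167), and *Ubash3b*, a phosphatase acting on SYK (-1.54, SE 0.33, adjusted p = 0.0343), both in edgeR with Benjamini-Hochberg adjustment. The call of *Dok2* was lost without WL1 replicates 2 or 3 or WL2 replicates 2 or 3 (-1.38 to -1.02), and that of *Ubash3b* also without WL1 replicate 1 (-2.05 to -1.28). *Dok2* also fell in WL2 against Pre (-0.82, SE 0.20, adjusted p = 0.0274, edgeR with Benjamini-Hochberg), lost without Pre replicates 2 or 3 or WL2 replicates 2 or 3. In that comparison 3 of the 15 fell, beside 6.66% of all genes. The others were *Ptpn11* (-0.45, SE 0.12) and *Csk* (-0.67, SE 0.19), named after their values were seen. *Ptpn11* was also lower in every WL1 library than in any Pre library (-0.32, SE 0.12), without passing the threshold.

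Other paired immune receptors had the most genes past the threshold, with 9 of 29 higher in WL1 against Pre, none lower, and a median log2 fold change of 1.07. Of all genes 2.6% were higher and 4.69% lower past the threshold. *Cd300ld* and *Cd300lb*, activating receptors that signal through ITAM adapters, rose by 1.86 (SE 0.44, adjusted p = 0.0335) and 1.69 (SE 0.41, adjusted p = 0.0375) in edgeR with Benjamini-Hochberg adjustment. *Cd200r4*, an activating CD200 receptor, rose by 1.85 (SE 0.42, adjusted p = 0.0290), and *Pirb*, an inhibitory receptor that the study also prints, by 1.5 (SE 0.37, adjusted p = 0.0376) by the edgeR test and Benjamini-Hochberg adjustment as before. As for *Blnk* and the rest of the list, the p of *Pirb* is a description and no independent support. These 4 calls were each lost without Pre replicates 1 or 2 or without WL1 replicates 2 or 3. That of *Cd300ld* was also lost without WL1 replicate 1, and those of *Cd300lb* and *Pirb* without any Pre or WL1 library. *Siglec1*, the sialic acid receptor CD169 of macrophages, had 31.7, 44.6 and 45.9 CPM in Pre, 83.6, 78.3 and 89.5 CPM in WL1, and 34.8, 24.3 and 31.3 CPM in WL2. It rose in WL1 against Pre (1.04, SE 0.17, adjusted p = 0.00635) and fell in WL2 against WL1 (-1.48, SE 0.17, adjusted p = 0.00379) in edgeR with Benjamini-Hochberg adjustment, and both calls held under all 19 alternatives. Its WL2 libraries, replicate 1 included, all lay below its WL1 libraries. *Clec4a2*, an inhibitory lectin receptor, fell in WL2 against WL1 (-1.43, SE 0.33, adjusted p = 0.0433, edgeR with Benjamini-Hochberg), a call that needed Pre replicate 3, each WL1 library and both WL2 replicates 2 and 3. *Pilra*, an inhibitory receptor, fell in WL2 against Pre (-0.92, SE 0.26, adjusted p = 0.0496, edgeR with Benjamini-Hochberg), a call lost without any library but Pre replicate 1.

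Among 14 phagocytosis and oxidase genes 1 rose in WL1 against Pre (*Elmo1*, named after its values were seen) and 2 fell in WL2 against WL1, with medians of 0.79 and -1.0. The shares of all genes were 2.6% and 2.37%. *Dock2*, a RAC activator of leukocytes, had 37.6, 66.2 and 69.1 CPM in Pre, 102, 113 and 171 CPM in WL1, and 71.0, 31.4 and 42.4 CPM in WL2. It fell in WL2 against WL1 (-1.41, SE 0.32, adjusted p = 0.0436, edgeR with Benjamini-Hochberg), a call that needed Pre replicate 3, each WL1 library and both WL2 replicates 2 and 3. Of 4 other SIRP genes and partners 0 passed in edgeR in WL1 against Pre (2 at an unadjusted p below 0.05, beside 24.3% of all genes).

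The ligands differed from the receptors. *Cd47*, the SIRPα ligand, had 138.6 to 168.3 CPM over the 9 libraries, with a log2 fold change of 0.05 (SE 0.10) in WL1 against Pre and 0.00 (SE 0.10) in WL2 against WL1. The ratio of *Sirpa* to *Cd47* in CPM was 0.971 to 1.43 in Pre, 2.14 to 3.29 in WL1 and 0.896 to 1.75 in WL2. *Thbs1*, thrombospondin-1, a secreted ligand of CD47, had 305, 348 and 510 CPM in Pre, 1003, 857 and 753 CPM in WL1, and 1423, 1412 and 1657 CPM in WL2. It rose in WL1 against Pre (1.17, SE 0.19, adjusted p = 0.00701) and in WL2 against Pre (1.95, SE 0.20, adjusted p = 0.000227) in edgeR with Benjamini-Hochberg adjustment, under all 19 alternatives. Unlike the receptors, its WL2 libraries all lay above its WL1 libraries (log2 fold change 0.78, SE 0.19, adjusted p = 0.0515 in edgeR with Benjamini-Hochberg), a difference that misses the threshold but passed it in 10 of the 19 alternatives, DESeq2 among them.

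IgG transcripts were high in few libraries. *Ighg1* had 18.2 CPM and *Ighg2c* 12.6 CPM in Pre replicate 2, the library with the high B-cell markers, and at most 0.12 CPM elsewhere. *Ighg2b* had 128 CPM in WL1 replicate 2, 3.20 CPM in Pre replicate 2 and at most 0.91 CPM elsewhere. *Ighg3* had 6.94 CPM in Pre replicate 2, 7.27 CPM in WL1 replicate 1 and at most 2.24 CPM elsewhere. None of the 4 passed the edgeR threshold in any comparison. *Ighm*, the IgM heavy chain, had 1120, 2502 and 1246 CPM in Pre, 159, 160 and 285 CPM in WL1, and 234, 233 and 137 CPM in WL2. It fell by 3.01 on the log2 scale in WL1 against Pre (SE 0.37, adjusted p = 0.00151) and by 3.01 in WL2 against Pre (SE 0.37, adjusted p = 0.000793) in edgeR with Benjamini-Hochberg adjustment, under all 19 alternatives. Pre replicates 1 and 3 had this *Ighm* level beside summed B-cell markers of 4.13 and 6.09 CPM.

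Of the other 11 Fc receptor genes tested, 1 fell in WL1 against Pre, near the share of all genes that did (4.69%). *Fcrls*, an Fc receptor-like scavenger receptor, had 44.8, 73.3 and 66.3 CPM in Pre, 33.5, 35.4 and 32.1 CPM in WL1, and 27.8, 34.4 and 36.4 CPM in WL2. It fell in WL1 against Pre (-0.87, SE 0.18, adjusted p = 0.0179) and in WL2 against Pre (-0.90, SE 0.18, adjusted p = 0.0104) in edgeR with Benjamini-Hochberg adjustment. The first call was lost without any WL1 library, at -1.05 to -0.73 over the libraries left out, and the second held under all 19 alternatives. *Fcgrt*, the neonatal Fc receptor that recycles IgG, had 267 to 430 CPM in Pre, 304 to 337 CPM in WL1 and 358 to 417 CPM in WL2, and passed in no comparison.

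The 10 protein-coding genes whose pattern over the 9 libraries was most like the mean of the 9 members had r of 0.987 to 0.993, out of 13047 genes ranked. They were *Btk*, *Itgam*, *Pira2*, *Smap2*, *Ipo5*, *Daglb*, *Metrnl*, *Mpeg1*, *Adcy7* and *Nckap1l*. *Btk*, *Pira2* and *Nckap1l* belong to the wider list and *Itgam*, the integrin αM chain, to the macrophage markers. *Mpeg1*, which encodes the macrophage pore protein perforin-2, had 149, 265 and 284 CPM in Pre, 480, 496 and 842 CPM in WL1, and 400, 163 and 158 CPM in WL2. WL1 replicate 3 and WL2 replicate 1 were again the highest libraries of their phases.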

How the data were processed

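The 9 RNA sequencing libraries of epididymal fat were grouped by the sample labels. The authors deposited raw whole-number counts for each gene, and FPKM per gene that the authors scaled to totals of 0.995 to 1.12 times the sum of the counts. The submitters' processing notes name HISAT2, HISAT, TopHat2 and CASAVA and the builds GRCm38 and mm10, with no versions. For the counting program, strand setting and annotation, the sources used here give nothing. Depth was 16434450 to 22729072 counts per library.

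Genes that reached 0.5 CPM, the minimum of the study's methods, in 1 or more libraries were tested with edgeR 4.0.16 in R 4.3.3 (quasi-likelihood test, TMM factors, all 9 libraries in 1 model, Benjamini-Hochberg over 18510 genes, threshold 0.05). DESeq2 1.42.0, limma 3.58.1 on log2(FPKM + 1) and log2(FPKM + 0.1), other factors, filters, a replicate block and fits without each library were the alternatives. CPM are TMM-scaled, and log2 CPM for correlations used a prior count of 4. No column was left without a sample. Libraries of a group differed beyond sampling noise, with chi-square values of 9.13 to 48.9 per degree of freedom.

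The members, the 8 role lists and 7 marker lists, and the promoter motifs were chosen with earlier results of these data known. Named genes are the members, in each comparison and direction the 5 listed genes with the largest change past the threshold and a mean of at least 1 CPM, direct partners of the members (*Tyrobp*, *Cd47*, *Ptpn6*, *Inpp5d*, *Lyn*, *Fgr*, *Btk*, *Blnk*, *Pirb*, 4 IgG genes and *Fcgrt*, with 1 further partner not reported here), and the 10 genes most like the members.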

Additional observations from a re-analysis of the deposited data

How the results depend on the processing

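The number of members past the threshold depended on the setting. In WL1 against Pre it was 1, with 8 without the filter or in DESeq2, 5 with library totals alone, 2 with the compared phases alone, and from 0 to 5 leaving out each library. In WL2 against WL1 it was 1, with 8 without the filter, 7 in DESeq2, 2 with the compared phases alone, 0 with RLE or upper-quartile factors, library totals alone or limma on log2(FPKM + 0.1), and from 0 to 8 leaving out each library. In WL2 against Pre it was 0 under all 19 alternatives. For the wider list, the 18 genes in WL1 against Pre became 47 without the filter, 34 in DESeq2, 35 with library totals alone, 11 and 4 in limma with pseudocounts of 1 and 0.1, and from 4 to 32 leaving out each library. The 10 genes in WL2 against Pre became 18 without the filter, 5 with library totals alone and 4 in limma with a pseudocount of 0.1, and from 3 to 13 leaving out each library. The 13 genes in WL2 against WL1 became 56 without the filter, 43 in DESeq2, 20 with the compared phases alone and 2 in limma with a pseudocount of 0.1, and from 1 to 49 leaving out each library. The causes were not tested. With the replicate number as a block, the members past the threshold were 0 in each comparison and the wider list gave 7, 7 and 2 genes. The libraries share only a number, since deviations of same-numbered libraries correlated at -0.28 to 0.11, so this block is no pairing. The log2 fold changes of the members were compared by size alone, and over all alternatives 507 moved by less than 1 SD between replicates and 6 by more. Of those of the named genes of the wider list, 1404 kept their call or, where not called, moved by less than 1 SD, 122 lost the threshold, 82 gained it and 31 moved further. *Sirpb1b* and *Sirpb1c* have the fewest reads and shared sequence, and their limma values are smaller because of the pseudocount (0.62 and 0.60 in WL1 against Pre with a pseudocount of 1). With library totals alone the median of all genes moved to 0.12 in WL1 against Pre and 0.16 in WL2 against Pre.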

Other observations

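*Fcgr2b* resembled other genes than the rest of the members. The 10 protein-coding genes with the most similar pattern, ranked after its values were seen, were *Ctsc*, *Cmah*, *Smpd3*, *Ak4*, *Smurf2*, *Fn1*, *Copa*, *Ssr3*, *Psd* and *Cggbp1* (r of 0.90 to 0.98 over the 9 libraries, out of 13055 genes), and none of them is in the role or marker lists. *Ctsc*, the lysosomal protease cathepsin C, had 111, 174 and 156 CPM in Pre, 127, 112 and 140 CPM in WL1, and 114, 106 and 143 CPM in WL2. *Fn1*, which encodes fibronectin, had 714, 1368 and 1405 CPM in Pre, 920, 704 and 1189 CPM in WL1, and 625, 611 and 878 CPM in WL2. The points share library and phase, and no test was made.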
